A study of Mus musculus with 6 samples.

Results

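Interferon-type and other steady chemokines are described here as 7 genes, Cxcl9, Cxcl10, Cxcl11, Ccl5, Ccl4, Ccl9 and Ccl25, among 39174 genes of the deposited expression table. They were chosen by their measured values, namely a mean of at least 1 FPKM over all libraries and little change with flow, so their levels and their differences between groups are given as a description with no test. The 7 symbols matched 8 rows, because Ccl25 stands on 2 of them. RNA was sequenced from MLO-Y4 cells, a mouse long-bone line that resembles osteocytes, the mechanosensing cells that lie within mineralized bone. Every culture was the same line, grown in serum-containing medium on glass slides coated with type I collagen. In the flow group (n = 3) the cells received 2 h of oscillating fluid flow in parallel-plate chambers (10 dyn/cm²) and then 2 h in fresh medium. The non-flow control group (n = 3) had a parallel sham treatment. The study set flow against non-flow cells to find regulated transcripts, and the replicates of each group were collected on separate days.

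Chemokines are small secreted proteins that attract leukocytes through G protein-coupled receptors. Cxcl9, Cxcl10 and Cxcl11 share the receptor CXCR3, found mainly on activated T cells and natural killer cells, and are classic targets of interferons. Ccl5 (RANTES) and Ccl4 (MIP-1β) attract T cells and monocytes, and transcription of Ccl5 is driven by interferon regulatory factors and NF-kB. Ccl9 acts through CCR1, the receptor through which it attracts osteoclast precursors. Ccl25 is best known as a thymic and intestinal chemokine that acts through CCR9.

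Values are FPKM as the authors deposited them, fragments scaled for transcript length and library size, so levels may be compared between genes. Depth was estimated from the value of a single read, and the 2 deposited tables gave different estimates for the same libraries. In the table used here it was 17910000 to 19000000 reads in the controls and 11020000, 5750000 and 19230000 reads in flow libraries 1 to 3. At these depths 3 reads on 1 kb equalled 0.156 to 0.521 FPKM. Of 11957 genes that averaged 1 FPKM or more, limma called 2 at an adjusted p under 0.05 (0.0167%). Among osteocyte and osteoblast markers, Gja1 (455 FPKM on average), Pdpn (401 FPKM) and Phex (5.59 FPKM) were present. Dmp1 reached at most 0.0354 FPKM, and Sost, Mepe and Fgf23 were listed at 0 in all 6 libraries.

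Cxcl10 had the highest mean level of the 7. It had 657, 1081 and 1146 FPKM in non-flow controls 1 to 3 and 726, 1224 and 1083 FPKM in flow libraries 1 to 3. Control 1 and flow 1 were the lowest libraries, and the groups overlapped. The means were 961 ± 266 FPKM in control and 1011 ± 257 in flow (SD, n = 3), a difference of 0.08 with SE 0.28 in log2(FPKM + 1), flow minus control. The gene (ENSMUSG00000034855) lies on the minus strand of chromosome 5, at 92346638 to 92348889 of mm10.

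Cxcl9 (ENSMUSG00000029417) is its neighbour, on the same strand at 92321347 to 92328079 of chromosome 5, with 18558 bases between the genes. It had 12.4, 21.2 and 10.2 FPKM without flow and 13.8, 34.3 and 8.31 FPKM after flow. Replicate 2 was the highest of each group, and flow held both the highest and the lowest library. Means were 14.6 ± 5.80 FPKM in control and 18.8 ± 13.7 FPKM in flow (SD, n = 3), a log2 difference of 0.18 with SE 0.52.

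Cxcl11 (ENSMUSG00000060183) follows at 92359544 to 92365485, 10654 bases from Cxcl10. GENCODE M21 types it as a polymorphic pseudogene, with 1 coding transcript of 1581 nt among 2. Its levels were 5.05, 9.08 and 4.87 FPKM without flow and 6.76, 11.9 and 4.36 FPKM after flow, with means of 6.33 ± 2.38 and 7.68 ± 3.87 FPKM (SD, n = 3). The log2 difference was 0.20 with SE 0.37, and again replicate 2 was the highest of each group. The pseudogene Gm2673 on the opposite strand shares 41.7% of the exon bases of Cxcl11 and was listed at 0 in all 6 libraries. The use of strand is not given in the sources used here, so reads of Cxcl11 and Gm2673 cannot be told apart. Art3 on the opposite strand shares 5.91% of the exon bases of Cxcl10, and its highest level was 1.69 FPKM.

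The bases before the start of 3 members are printed to set the highest member beside its cluster neighbour and beside the steadiest member. They come from RefSeq, build GRCm38.p6, whose table held 4 of the 7 genes (Cxcl9, Cxcl10, Ccl9 and Ccl25). Each is the 250 bases before the start, on the minus strand, 5′ to 3′. Capitals mark the interferon-stimulated response element core (GAAANNGAAA) and the NF-kB consensus, on either strand.
Cxcl10, chr5:92348890-92349139: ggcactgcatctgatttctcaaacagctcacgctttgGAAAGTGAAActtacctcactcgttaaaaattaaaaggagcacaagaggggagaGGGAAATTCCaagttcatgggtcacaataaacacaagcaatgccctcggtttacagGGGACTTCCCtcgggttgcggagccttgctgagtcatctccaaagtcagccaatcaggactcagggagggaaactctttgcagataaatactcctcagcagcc
Cxcl9, chr5:92328080-92328329: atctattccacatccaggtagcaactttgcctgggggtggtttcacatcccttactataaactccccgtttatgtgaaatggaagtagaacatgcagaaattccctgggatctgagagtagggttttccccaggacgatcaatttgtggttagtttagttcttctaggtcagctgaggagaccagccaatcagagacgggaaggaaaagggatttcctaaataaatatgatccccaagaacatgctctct
Ccl9, chr11:83578637-83578886: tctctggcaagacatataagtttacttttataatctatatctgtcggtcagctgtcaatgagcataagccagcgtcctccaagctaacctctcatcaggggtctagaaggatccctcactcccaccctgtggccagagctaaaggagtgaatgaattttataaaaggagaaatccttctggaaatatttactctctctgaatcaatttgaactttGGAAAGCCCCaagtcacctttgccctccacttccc

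The Cxcl10 window held 1 response element core, at 213 to 204 bases before the start, and 2 NF-kB matches, at 159 to 150 and 103 to 94 bases before it. Neither motif was found in the Cxcl9 window or in either of the 2 Ccl25 windows, and the Ccl9 window held 1 NF-kB match on the other strand. The gamma-activated site (TTCNNNGAA), also searched on both strands, had 0 matches in these windows. Over all 32851 windows of this length in the table, 2.98% held the response element core, 3.90% the NF-kB consensus and 7.02% the gamma-activated site. These are matches of letters and not measured sites. A site that departs from the pattern by a single base was not counted, so a window with 0 matches is not shown to lack such sites.

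Ccl5 was the second most abundant member. It had 442, 801 and 435 FPKM without flow and 504, 892 and 467 FPKM after flow. Control 2 and flow 2 were well above the other 4 libraries, which lay within 435 to 504 FPKM. Group means were 559 ± 209.6 FPKM in control and 621 ± 235 in flow (SD, n = 3), with a log2 difference of 0.15 and SE 0.34. Ccl5 (ENSMUSG00000035042) lies at 83525778 to 83530518 on the minus strand of chromosome 11.

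Ccl4 (ENSMUSG00000018930), on the plus strand of chromosome 11 at 83662584 to 83664683, differed most between the groups. Its levels were 4.02, 10.4 and 5.97 FPKM without flow and 8.32, 15.9 and 6.92 FPKM after flow. Flow libraries 1 and 3 lay below control 2, so the groups overlapped. The means were 6.79 ± 3.26 and 10.4 ± 4.85 FPKM (SD, n = 3), a log2 difference of 0.55 with SE 0.39. With the depth estimated from the table used here, Ccl4 rested on about 33, 86 and 52 reads in the controls and 42, 42 and 61 in flow. The exact Poisson interval (95%) for the smallest of these was 22.7 to 46.3 reads, which covers counting error only and not the uncertainty of the depth. Thus Ccl4 was the largest change in a set described as steady, and it was no larger than the range of either group.

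Ccl9 (ENSMUSG00000019122), at 83572919 to 83578636 on the minus strand of chromosome 11, varied least. Its 6 values lay between 27.4 FPKM in flow 2 and 36.6 FPKM in flow 1, with control values of 35.2, 31.1 and 31.7 FPKM inside that range. The highest library exceeded the lowest 1.33-fold, against 4.13-fold for Cxcl9 and 3.96-fold for Ccl4. Group means were 32.7 ± 2.2 and 32.8 ± 4.74 FPKM (SD, n = 3), a log2 difference of -0.0047 with SE 0.13.

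Ccl25 (ENSMUSG00000023235) had the lowest level, 3.56, 3.56 and 4.75 FPKM without flow and 4.70, 2.42 and 3.01 FPKM after flow. Its means were 3.96 ± 0.689 and 3.38 ± 1.18 FPKM (SD, n = 3), a log2 difference of -0.20 with SE 0.23. It spans 4325210 to 4360020 on the plus strand of chromosome 8, with 10 annotated transcripts of which 4 code for protein. The oppositely transcribed Elavl1 covers 2.74% of Ccl25 exon bases and had 24.7 FPKM on average. The other Ccl25 row (ENSMUSG00000055951) reached at most 0.145 FPKM, was listed at 0 in flow 1 and flow 2, and was not tested.

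**Figure D1:**
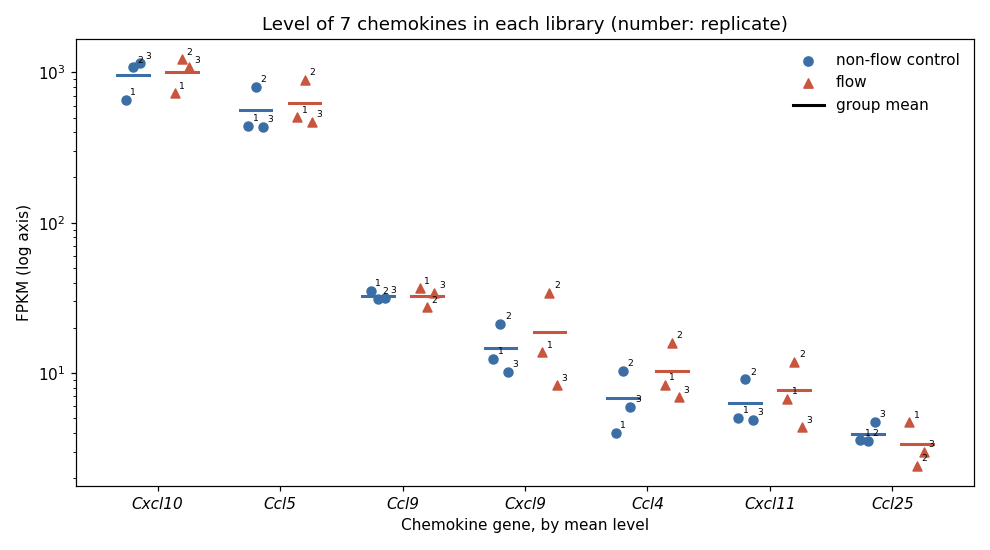
Level of the 7 chemokines in FPKM (log axis), 1 point per library, circles for non-flow control and triangles for flow, with the replicate number beside each point and a bar at the group mean. Cxcl10 and Ccl5 lie between 435 and 1224 FPKM, the other 5 at or below 36.6 FPKM, and flow and control points overlap in every gene.

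Cxcl10 and Ccl5 dominated the set. Together they made up 94.6% to 96.5% of the summed FPKM of the members in each library. Cxcl10 exceeded Ccl5 in all 6 libraries, by 1.35-fold to 2.63-fold, although the ranges of the 2 genes overlapped. Ccl5 exceeded Ccl9 by at least 12.5-fold in each library, with no overlap. Further down, ranges of neighbours overlapped. Ccl9 was above Cxcl9 in 5 of 6 libraries, Cxcl9 above Ccl4 in 6, Ccl4 above Cxcl11 in 5 and Cxcl11 above Ccl25 in 6. Among the CXCR3 ligands the ratio of Cxcl9 to Cxcl11 stayed between 1.91 and 2.88. The ratio of Cxcl10 to Cxcl9 ranged from 35.7 to 130.3, and was highest in control 3 (112.2) and flow 3 (130.3).

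Beside the rest of the chemokine family, the members held a smaller share of chemokine transcripts in flow. They made up 57.7%, 60.5% and 61.4% of the summed chemokine FPKM in controls 1 to 3 and 48.8%, 30.7% and 27.0% in flow libraries 1 to 3. The summed FPKM of the members itself was 1159, 1958 and 1639 in the controls and 1300.0, 2208 and 1607 in flow, and overlapped. That of the other chemokines was 848, 1279 and 1031 in the controls and 1365, 4983 and 4352 in flow. The share is therefore set by the other chemokines, and it rests on the contrast used to choose the members.

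In none of the 7 members did the 3 flow values lie all above or all below the controls. Over all genes tested, 7.12% had every flow value above and 8.0% every flow value below the controls. These counts are printed only as background, since the same contrast chose the members. Of the 32 other chemokine genes, 7 were tested, and all 7 had a positive log2 difference, with a median of 1.56 against 0.15 for the members and -0.01 over all genes tested. Of those 7, limma called 0 at an adjusted p under 0.05, and 6 had an unadjusted p under 0.05 (3.70% of all genes in that direction). These 7 are the tested chemokines left once those that change little with flow had been set apart, so their signs and small p-values follow in part from that choice and nothing is read from them. Ccl2, a monocyte attractant, had 438, 660 and 527 FPKM without flow and 711, 2159 and 1662 FPKM after flow (limma, log2 difference 1.35, SE 0.42, adjusted p = 0.559). Cxcl5, a neutrophil attractant, differed by 2.78 with SE 0.65 (limma, adjusted p = 0.559).

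The rule gives no fold at which a change counts as little. Ccl4, at 0.55, was the farthest from 0 inside the set. Cx3cl1 (fractalkine), which is not a member, had a smaller log2 difference of 0.24 at a mean of 20.4 FPKM. On the scale of level, Ccl25 with a mean of 3.67 FPKM was the lowest member, while Ppbp (0.828 FPKM) and Ccl8 (0.747 FPKM) stood nearest below the minimum. Another 13 chemokine genes were listed at 0 in every library, among them Cxcl12 and Ccl3. Ccl3 (MIP-1α) is the nearest coding neighbour of Ccl4, 13228 bases away.

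**Figure D2:**
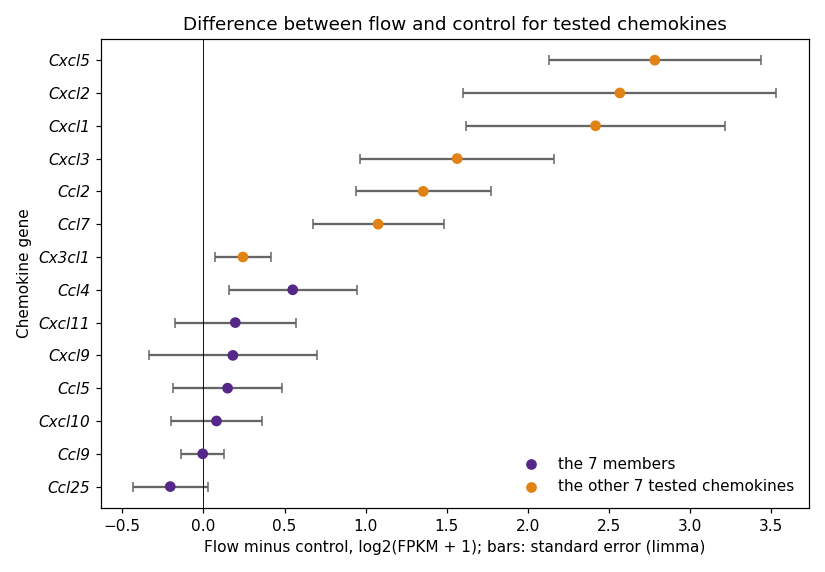
Flow minus control in log2(FPKM + 1) for the 14 tested chemokines, with points for the estimate and bars for its standard error from limma. The 7 members lie between -0.20 and 0.55, and the other 7 between 0.24 (Cx3cl1) and 2.78 (Cxcl5).

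Variation between replicates exceeded the difference between groups in the members, which follows in part from choosing genes that change little with flow. For Ccl4 the 2 were close. The pooled within-group SD of log2(FPKM + 1) had a median of 0.51 over the 7 members, against 0.20 over all genes tested. It was 0.78 for Cxcl9, 0.59 for Ccl4, 0.55 for Cxcl11, 0.51 for Ccl5, 0.42 for Cxcl10, 0.30 for Ccl25 and 0.16 for Ccl9. Only Ccl9 lay below the value for all genes. The sign of the difference turned in 4 of the 5 members with a positive value when flow 2 was left out, to -0.35 for Cxcl9, -0.14 for Cxcl11, -0.14 for Ccl5 and -0.07 for Cxcl10. When flow 3 was left out instead, the difference rose to 0.61 for Cxcl9, 0.50 for Cxcl11 and 0.32 for Ccl5. For Cxcl10 it was then 0.01. Ccl4 kept a positive difference without any 1 library, from 0.22 to 0.86.

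The members fell into different patterns across libraries. In Cxcl9, Cxcl11, Ccl5 and Ccl4, control 2 and flow 2 were the 2 highest libraries. This held for 4 of 7 members and for 8.05% of all genes tested, a count made after the values were seen. By the depth estimated from the table used here, flow 2 was the shallowest library at 5750000 reads, while control 2 had 18080000 reads. The other deposited table gave 4590000 reads for control 2, and 4410000 and 4610000 for 2 flow columns that match no title. Its lowest estimates were 690000 for control 1 and 3610000 for flow 1, so it did not place the shallowest library in the same column. Whether depth had a part in the pattern was not tested. The root-mean-square (RMS) difference of centred log2 values over 6 libraries ran from 0.14 (Cxcl11 and Ccl5) to 0.37 (Cxcl9 and Ccl4) over the 6 pairs of these 4 genes. For Cxcl10 it was 0.39 from Ccl5, 0.44 from Ccl4, 0.47 from Cxcl11 and 0.63 from Cxcl9, so the lowest of these lay close to the highest within the 4. Ccl9 and Ccl25, which varied less, were 0.21 apart. In control 3 and flow 3 Cxcl10 was above its own mean while Cxcl9, Cxcl11, Ccl5 and Ccl4 were below theirs. Ccl9 was lowest in the libraries where those 4 were highest, with 31.1 FPKM in control 2 and 27.4 FPKM in flow 2.

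**Figure D3:**
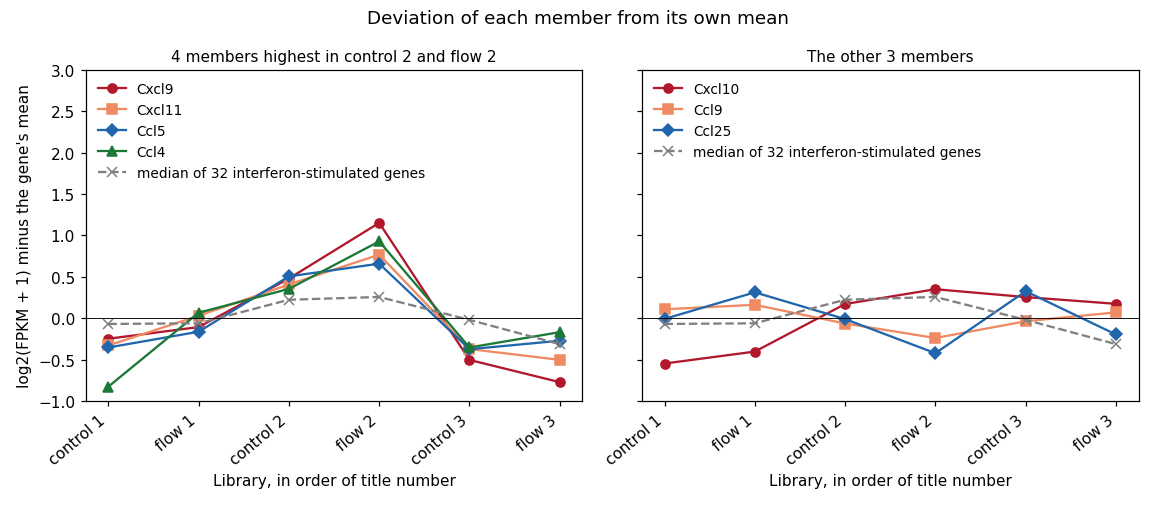
Deviation of log2(FPKM + 1) from the mean of each gene, for 6 libraries in order of title number, with the median of 32 interferon-stimulated genes as a dashed line. Cxcl9, Cxcl11, Ccl5 and Ccl4 peak in control 2 and flow 2, Cxcl10 is lowest in control 1 and flow 1, and Ccl9 stays within a 1.33-fold range.

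Adjacent title numbers (3 and 4, 11 and 12, 19 and 20) join each control with the flow library of the same replicate number, but no label says that they share a day. Read this way, Ccl4 was 2.07-fold, 1.54-fold and 1.16-fold its control in the 3 pairs. Ccl5 was 1.14-fold, 1.11-fold and 1.07-fold its control. Cxcl9 (1.11, 1.62 and 0.814), Cxcl10 (1.11, 1.13 and 0.945) and Cxcl11 (1.34, 1.31 and 0.896) were higher in flow in the first 2 pairs and lower in the last. With the pairs as a block, the SE of the log2 difference went from 0.34 to 0.07 for Ccl5, from 0.28 to 0.08 for Cxcl10 and from 0.39 to 0.17 for Ccl4, while the differences stayed at 0.15, 0.08 and 0.55. Ccl9 and Ccl25 changed little in SE (0.10 and 0.22 with the block).

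Some genes outside the family tracked members closely. The protein-coding genes nearest to Ccl5 were Psme1 (RMS difference 0.12), an interferon-inducible proteasome activator subunit, Slc24a3 (0.13), an ion exchanger, and Ddit3 (0.13), a stress-induced transcription factor. Psme1 had 233, 362 and 232 FPKM without flow and 252, 383 and 213 FPKM after flow. Those nearest to Cxcl10 were Erlin1 (0.07), Gadd45a (0.09) and Acot2 (0.11). Erlin1, an endoplasmic reticulum membrane protein, had 126, 223 and 210.5 FPKM without flow and 147, 257 and 204 FPKM after flow. For scale, the values of Ccl5 and Cxcl10 deviated from their own means by 0.42 and 0.34 (RMS). These are descriptions over 6 libraries, and with 11957 genes to choose from close matches carry no further reading. The coding neighbour of Ccl5, 3602 bases away, is Heatr9 (listed as Gm11435). Heatr9 had 1.00, 1.98 and 1.00 FPKM without flow and 0.974, 3.94 and 0.620 FPKM after flow, so control 2 and flow 2 were its highest libraries too. Nup54 and Sdad1, which flank the Cxcl9 to Cxcl11 cluster, stayed between 27.3 and 34.6 FPKM and between 15.4 and 20.2 FPKM.

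Most of the receptors described here were listed at 0. Cxcr3, Ccr1, Ccr3 and Ccr9 were listed at 0 in all 6 libraries. Ackr4, an atypical receptor that takes up Ccl25, stands on 2 rows and reached at most 0.243 FPKM. Ackr2, which takes up inflammatory CC chemokines, reached at most 0.0428 FPKM, and Ackr1 was listed at 0. Ackr3, an atypical receptor that binds Cxcl11 and does not signal through G proteins, was the exception. It had 12.9, 12.6 and 23.8 FPKM without flow and 13.8, 11.8 and 13.9 FPKM after flow (limma, log2 difference -0.25, SE 0.25, adjusted p = 0.677). Dpp4, a protease that trims the N-terminus of several of these chemokines, reached 0.135 FPKM in control 1 and was listed at 0 elsewhere. The heparan sulfate carriers Sdc4 and Sdc1, which bind chemokines at the cell surface, had 163 and 46.3 FPKM on average. Of the 11 genes of this list 3 were tested. Limma called 0 of them, and 0 had an unadjusted p under 0.05. Over all genes tested 3.70% were higher and 4.82% lower at that p, so for 3 genes these counts are not a result.

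Most of the chosen leukocyte markers were near 0. Of 18 markers, 6 were listed at 0 in all libraries (Cd3g, Cd8a, Gzmb, Nkg7, Itgam and S100a9), and the summed level of the list was 10.2 to 12.8 FPKM without flow and 9.76 to 11.8 FPKM after flow. Ptprc (CD45) reached at most 0.0142 FPKM. The list was carried by Cd14 (7.5 FPKM on average) and Cd68 (2.24 FPKM), which cells other than leukocytes also express. Outside the list, other genes best known from leukocytes had higher levels, with 73.7 to 135.5 FPKM for Itgb7, 8.77 to 17.6 FPKM for Lck and 5.13 to 11.8 FPKM for Itgb2. Their part in the members' levels was not tested.

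Transcripts of the interferon system were abundant in both groups, and no list member passed the test between them. Of 22 interferon signalling genes, 18 were tested and limma called 0 at an adjusted p under 0.05. At an unadjusted p under 0.05, 1 was higher (Jak2) and 1 lower (Socs1) in flow, against 3.70% and 4.82% of all genes. Ifnb1, the gene of interferon beta, had 4.81, 9.82 and 10.4 FPKM without flow and 10.2, 22.9 and 12.3 FPKM after flow (limma, log2 difference 0.78, SE 0.37, adjusted p = 0.559). Control 1 was the lowest library and flow 2 the highest, and the groups overlapped. Ifng, Ifnl2 and Ifnl3 were listed at 0. Irf7, the factor that amplifies type I interferon, had 536, 911 and 472 FPKM without flow and 358, 607 and 348 FPKM after flow (limma, log2 difference -0.53, SE 0.32, adjusted p = 0.577). Socs1, an inhibitor of JAK kinases, had 36.3, 46.3 and 28.5 FPKM without flow and 15.8, 28.3 and 21.4 FPKM after flow. Its 3 flow values lay below the 3 controls (limma, log2 difference -0.75, SE 0.26, adjusted p = 0.559). Jak2 had 13 to 15.2 FPKM without flow and 16.2 to 25.9 FPKM after flow (limma, adjusted p = 0.559).

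All 32 interferon-stimulated genes were tested, and limma called 0, with a median log2 difference of -0.14 against -0.01 over all genes tested. At an unadjusted p under 0.05, 2 of the 32 were lower in flow and 0 higher, against 4.82% and 3.70% of all genes tested, a share near the background. The 2 were Tap1, a peptide transporter of antigen presentation, and Oas3, an antiviral synthetase. Tap1 had 175, 188 and 172 FPKM without flow and 144, 135 and 145 FPKM after flow (limma, log2 difference -0.34, SE 0.08, adjusted p = 0.559). Oas3 had 94.4, 114 and 90.9 FPKM without flow and 66.9, 82.5 and 76.7 FPKM after flow. In 4 of the 32 all flow values lay below all controls and in 0 above, against 8.0% and 7.12% of all genes tested. Isg15, a ubiquitin-like modifier, had 908, 982 and 898 FPKM without flow and 1014, 957 and 825 FPKM after flow.

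The pattern of control 2 and flow 2 as the 2 highest libraries, seen in 4 members, also held in 16 of the 32 interferon-stimulated genes, among them B2m, Psmb8, Gbp5 and Mx1. It held in 4 of 18 interferon signalling genes (Irf7, Irf1, Stat2 and Socs3), in 4 of 13 RNA and DNA sensing genes (Zbp1, Tlr3, Mb21d1 and Ikbke), in 2 of 12 NF-kB genes (Ikbkg and Ikbkb) and in 0 of the other 7 tested chemokines, against 8.05% of all genes tested. Mx1 had 19.5, 28.5 and 17.4 FPKM without flow and 16.1, 27.4 and 7.0 FPKM after flow. In the median over the 32 genes, control 2 deviated by 0.22 and flow 2 by 0.26 from the mean of each gene on the log2 scale, and flow 3 by -0.31.

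**Figure D4:**
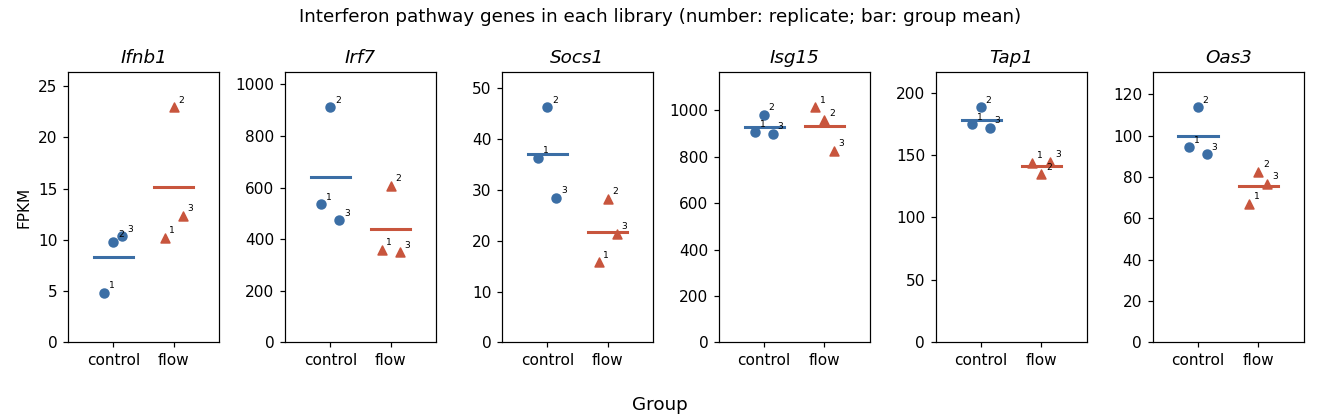
FPKM of 6 interferon pathway genes, 1 point per library with its replicate number and a bar at the group mean, on linear axes that start at 0. In Socs1, Tap1 and Oas3 the 3 flow values lie below the 3 controls, while Ifnb1, Irf7 and Isg15 overlap.

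Upstream of interferon, all 13 genes of RNA and DNA sensing were tested, and limma called 0, with 0 at an unadjusted p under 0.05. Zbp1, a nucleic acid sensor, had 109.9, 193 and 108 FPKM without flow and 129.6, 216 and 75.0 FPKM after flow. The RNA sensors Ddx58 (RIG-I) and Ifih1 (MDA5) averaged 119 and 133 FPKM. Of 12 NF-kB genes tested, limma called 0, and 0 had an unadjusted p under 0.05. For lists of this size these counts of 0 are not a result, since 3.70% of all genes tested were higher and 4.82% lower at that p. Of the NF-kB genes the median log2 difference was 0.24. Nfkbia, the inhibitor that NF-kB itself induces, had 49.4, 46.7 and 52.2 FPKM without flow and 46.3, 63.6 and 111 FPKM after flow (limma, log2 difference 0.47, SE 0.30, adjusted p = 0.590).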

How the data were processed

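RNA of 6 MLO-Y4 libraries (3 flow, 3 non-flow control) was sequenced with 50 cycles, single-end, per the labels' protocols. The authors deposited 2 tables of FPKM, and tools named in the submitters' processing notes are TopHat2 2.0.9, Cufflinks 2.2.1 and CASAVA 1.8.2, with mm10 as the build. For the annotation, counting settings and strand use, the sources used here give nothing. The table in which all 6 columns name a library was used. The other, in which 2 flow columns match no title and 22 rows repeat an identifier, was an alternative. No count model was fitted. Depth was read from the value of 1 read in genes with 1 transcript over 800 nt, after 200 nt were taken off the length, and checked on simulated data. It would be off if the authors rescaled the libraries. In the other table the same estimate gave 690000, 4590000 and 4720000 reads for controls 1 to 3 and 3610000 for flow 1. Read numbers and floors taken from depth carry this uncertainty.

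Genes averaging 1 FPKM or more entered limma 3.58.1 (R 4.3.3) as log2(FPKM + 1) (eBayes with trend, two-sided, no covariate, Benjamini-Hochberg adjustment over all genes tested, threshold 0.05). The fit was checked on simulated data with independent noise in each gene and no pattern shared by libraries. That check does not cover such shared patterns. An exact permutation test, whose smallest two-sided p is 0.1 for 3 against 3, was not run. The 9 gene lists, of which the members are 1, were chosen with earlier results of these data known. Named genes are the members, and from each list the 4 tested genes with the smallest p and the 3 with the highest level, the members' receptors, overlapping or neighbouring genes, and the 3 genes nearest in pattern to Cxcl10 and to Ccl5. Others (Cxcl12, Ccl8, Ppbp, Cx3cl1, Mx1, Psmb8, Gbp5, Stat2, Socs3, Ddx58, Tlr3, Mb21d1, Ikbke, Ikbkb, Ikbkg, Itgb7, Lck, Itgb2 and single markers) were named after their values were seen, and not every gene the rule takes is printed. A member of the receptor list is not reported here. Adgre1 and Ackr1 were matched by their older symbols. Coordinates, transcripts and overlaps are from GENCODE M21 on mm10, 1-based.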

Additional observations from a re-analysis of the deposited data

How the results depend on the processing

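With 3 libraries a group, the member differences depended on single libraries. Without flow 2 the log2 difference of Cxcl9 was -0.35, of Cxcl11 -0.14, of Ccl5 -0.14 and of Cxcl10 -0.07, and without control 1 that of Cxcl10 was -0.17. Without control 3 those of Cxcl9 and Ccl5 also fell below 0, at -0.03 and -0.0013. Other removals raised the differences. Without flow 3 that of Cxcl9 was 0.61, of Cxcl11 0.50 and of Ccl5 0.32, while that of Cxcl10 was 0.01. Without control 2 that of Cxcl9 was 0.47, of Cxcl11 0.45, of Ccl5 0.44 and of Cxcl10 0.19. Ccl4 stayed above 0 without any 1 library, at 0.22 to 0.86. Ccl25 stayed below 0, at -0.41 to -0.04, but was 0.04 in the other deposited table, where control 1 listed it at 0. The median over the members was -0.07 to 0.44 without 1 library. Without control 2 and flow 2 together, an alternative chosen after seeing the data, it was 0.08, and Cxcl9 was at -0.06. Cxcl11 was then at 0.11, Ccl5 at 0.15 and Cxcl10 at 0.03. Under these and the other alternatives (pseudocounts of 0.1 and 5, no filter, quantile normalization) each member moved by less than its SD between replicates. A filter at 5 FPKM drops Ccl25 and a restriction to protein-coding genes drops Cxcl11. The genes with control 2 and flow 2 highest numbered 1035 after quantile normalization, against 962.

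Over all genes, limma called 2 in the fit used here. It called 4 with a pseudocount of 0.1, 1 with a pseudocount of 5 and 4 with no filter. With the adjacent-title pairs as a replicate block it called 1, without 1 library 3 to 14, and without control 2 and flow 2 10. When only genes that GENCODE M21 types as protein-coding were kept, it called 0, with 998 at an unadjusted p under 0.05. Without flow 3, 3152 genes had an unadjusted p under 0.05 in limma. That number was 1019 with all libraries and 480 to 619 without any other single library. The cause of these shifts was not tested. In none of these settings was a gene of the 6 tested pathway lists called. Deviations from group means, over all genes tested, correlated at 0.04, 0.02 and 0.06 within the adjacent-title pairs. In the other combinations of a control and a flow library the values were -0.07 to 0.03. No label gives the pairs, so the pairing is not established.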
